A study of Mus musculus with 3 samples.

Results

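The forkhead factors other than Foxa are a set of 33 mouse genes, from Foxb1 to Foxs1, that share the forkhead DNA-binding domain. They were chosen by name, not by a cut on their values, but with earlier results of these data known. Of the 33, 32 had at least 1 probe on the arrays, out of 28600 gene names with a value on all 3 arrays, and Foxl1 was not analysed here. The 32 genes were read by 48 probes, 21 genes by 1 probe and 11 by more than 1. Total RNA came from E14.1, a line of mouse embryonic stem (ES) cells, at 3 times, on 1 Cy3-labelled Agilent expression array each. ES cells (day 0) grew in serum-free N2 and B27 medium with LIF at 1000 U/ml and BMP4 at 10 ng/ml, on gelatin. Cells labelled definitive endoderm (day 5) had grown on collagen IV in the same base medium with activin A at 30 ng/ml and without LIF or BMP4. Cells labelled early hepatic (day 7) had a further period with BMP4 at 30 ng/ml and bFGF at 10 ng/ml beside the activin A. All 3 arrays lay on 1 slide, and each day had 1 array, so that the day, the culture, the RNA sample and the position on the slide cannot be told apart. No test between days was possible and no p-value is given.

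Forkhead proteins bind DNA through a winged-helix domain. The Foxa proteins, the best known members in the liver, open chromatin in the foregut endoderm before hepatic genes are active. The other subfamilies work mostly elsewhere. Foxf and Foxc proteins act in mesoderm and mesenchyme, Foxd3 in the pluripotent epiblast and the neural crest, Foxj1 in ciliated cells, Foxm1 in dividing cells, and Foxo proteins in the response to insulin and stress, where phosphorylation by Akt keeps them out of the nucleus.

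Each value below is a normalised log2 signal, the log2 of the processed spot signal minus that of the array's 75th percentile, so that 0 is the 75th percentile of the array. It compares 1 probe between days, and says nothing of one gene's abundance against another's. A probe counted as detected where the scanning software marked it well above background, which held for 70.9% to 71.7% of the spots of an array. A difference was called when it reached 2-fold, a log2 difference of 1, with the brighter side detected. Where the dimmer side was not detected, it was set to the lowest detected signal of its array or to its own signal, whichever was higher. The fold is then a lower bound ("at least"), except where the probe's own undetected signal was used, as for Foxf2. Every forkhead probe had 1 spot per array. The error given after a measured difference is that of the software's model for the spots, and holds no spread between cultures. Between the spots of the probes printed 10 times on an array, the median SD was 0.075 to 0.079.

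The day 5 cells carried the label's markers, with 8 of 8 definitive endoderm markers called higher on day 5 against day 0. Of 8 hepatic markers, 5 were already higher and 1 lower on day 5 against day 0. On day 7, 6 of 8 were higher than on day 0, among them Afp at 875-fold, but Trf was 5.70-fold lower. Alb, the defining gene of hepatocytes, was detected on day 5, at -6.07, but not on day 7. Markers of other cells also moved on day 7. Of 10 mesenchyme markers, 9 were higher than on day 5, and all 8 extraembryonic endoderm markers were higher than on day 5. Of those 8, 4 were already higher and 3 lower on day 5 against day 0. The median difference over the genes detected on both arrays was -0.13 between days 5 and 0, -0.20 between days 7 and 0, and -0.09 between days 7 and 5, the later day minus the earlier in each case.

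Of the 32 forkhead genes, 29 were detected on at least 1 array, and 23 on all 3. Foxb1, Foxd4 and Foxf2 were detected on days 5 and 7 but not on day 0. Foxf1 and Foxi1 were detected on day 7 only, and Foxn1 on day 0 only. Foxe1, a thyroid factor, Foxn4, a factor of retinal and spinal interneurons, and Foxp3, the factor of regulatory T cells, were not detected on any array. Their signals lay between -7.18 and -6.76 for Foxe1, between -9.04 and -7.12 for Foxn4, and between -8.64 and -7.72 for Foxp3.

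**Figure D1:**
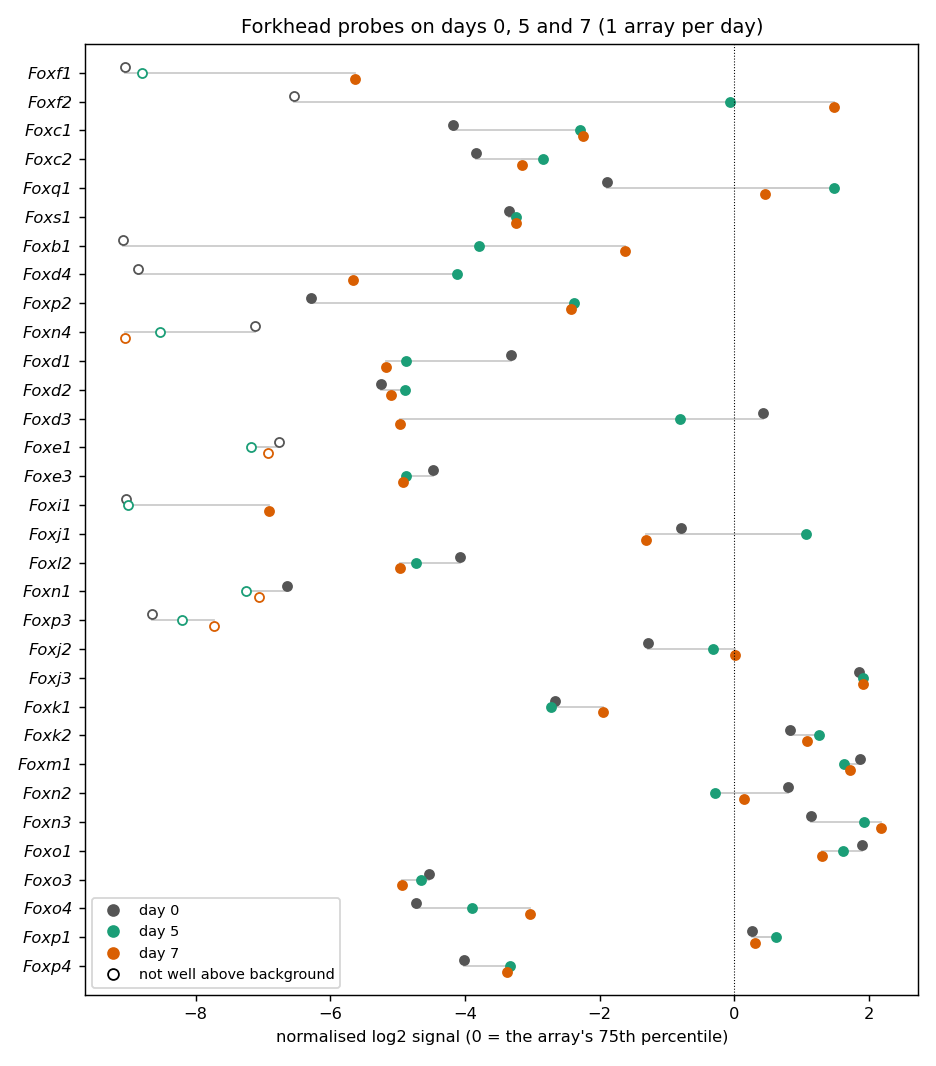
Normalised log2 signal (x axis, 0 is the 75th percentile of the array) of the probe used for each of 32 forkhead genes on day 0 (grey), day 5 (green) and day 7 (orange), with 1 array per day. Open circles are signals not well above background. Foxf2, Foxb1 and Foxd3 span the widest ranges, and Foxm1, Foxj3 and Foxs1 lie almost on 1 point.

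On day 5 against day 0, 7 of 29 forkhead genes were at least 2-fold higher (24.1%, against 16.5% of the 21662 genes compared) and 3 were lower (10.3%, against 16.1%). On day 7 against day 0, 10 of 29 were higher (34.5%, against 16.2% of all genes) and 2 were lower (6.90%, against 19.1%). These comparisons share the day 0 array. With the median difference of all genes set to 0, the share of all genes on day 7 against day 0 was 19.4% higher and 14.9% lower. On day 7 against day 5, 3 of 29 were higher (10.3%, against 5.96% of all genes) and 4 were lower (13.8%, against 8.38%). The median forkhead difference, with bounds at their bound, was 0.36 on day 5 against day 0, 0.14 on day 7 against day 0 and -0.04 on day 7 against day 5, beside -0.11, -0.19 and -0.06 over all genes compared. The forkhead counts are small, and a share near that of all genes says nothing particular of the family.

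**Figure D2:**
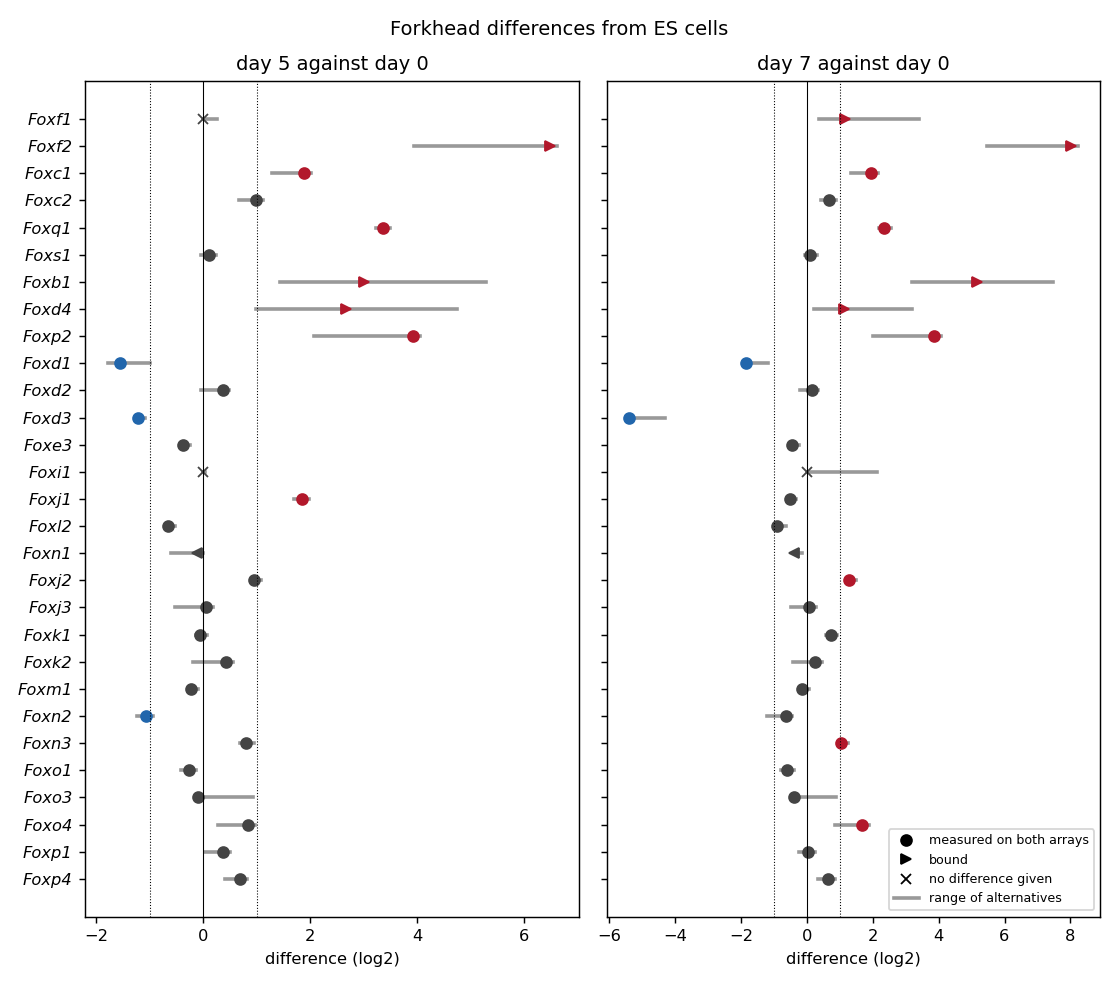
Log2 difference of day 5 against day 0 (left panel) and day 7 against day 0 (right panel) for the 29 forkhead genes detected on at least 1 array. Red and blue points are at least 2-fold higher or lower, and crosses have no difference given. Triangles are bounds, except those of Foxf2, which are measured from its own undetected day 0 signal. Grey bars span the 9 other ways of processing, and the 2 panels share the day 0 array. Foxf2 is at 6.47 and 8.03 and Foxd3 at -1.23 and -5.39.

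The largest difference of the family was that of Foxf2. It works in the mesenchyme of the developing gut, next to the endoderm and downstream of hedgehog signals. Its normalised log2 signal was -6.54 on day 0, where it was not detected, -0.07 on day 5 and 1.49 on day 7. That day 0 signal lay above the lowest detected signal of the array (-6.79), so it was used as it stood. Measured from it, the rise was 88.9-fold for day 5 (6.47 ± 0.37) and 261-fold for day 7 (8.03 ± 0.37). These folds rest on an undetected spot and are not lower bounds. With another background correction the differences from day 0 were 3.94 on day 5 and 5.46 on day 7 in log2. This was normexp, with an offset of 50 added to every signal, which narrows the differences of dim probes. The step from day 5 was smaller, 2.93-fold higher on day 7 than on day 5 (1.55 ± 0.20). In RNA from a whole culture, a change in the number of cells of one kind and a change of RNA per cell cannot be told apart.

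Foxf1, the close relative of Foxf2 in lateral plate and visceral mesoderm, was seen on 1 array only. It read -9.05 on day 0 and -8.80 on day 5, both not detected, and -5.64 on day 7. Day 7 was thus above day 0 by at least 2.23-fold and above day 5 by at least 2.18-fold. With the normexp correction these bounds were 0.38 and 0.45 in log2 and were not called.

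Foxq1, an epithelial factor known from hair shafts and the stomach lining, peaked on day 5. Its signals were -1.88 on day 0, 1.48 on day 5 and 0.46 on day 7. It was 10.3-fold higher on day 5 than on day 0 (3.36 ± 0.20) and 5.08-fold higher on day 7 than on day 0. Day 7 was 2.02-fold below day 5 (-1.02 ± 0.20), which lies at the 2-fold limit and was not called with 2 other scalings, with values as small as -0.92.

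Foxc1 and Foxc2 act together in paraxial mesoderm, blood vessels and the heart. Foxc1 had signals of -4.18 on day 0, -2.29 on day 5 and -2.24 on day 7. It was 3.70-fold higher on day 5 than on day 0 (1.89 ± 0.21) and 3.84-fold higher on day 7 than on day 0 (1.94 ± 0.21), while days 7 and 5 differed by 0.06. With the normexp correction the differences from day 0 were 1.28 and 1.35. Foxc2 had signals of -3.83 on day 0, -2.84 on day 5 and -3.15 on day 7. Its difference of 0.98 on day 5 against day 0 fell just short of 2-fold, and 2 other scalings put it past that limit, at up to 1.11. Foxs1, a factor of sensory neurons and of cells around vessels, differed by at most 0.11 between any days.

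Foxq1, Foxf2 and Foxc1 lie in a row on chromosome 13. In the mouse build mm9 that the array files use, the Foxq1 probe lies at chr13:31651865-31651924, the Foxf2 probe at chr13:31723139-31723198 and the Foxc1 probe at chr13:31901257-31901316, all on the plus strand. The Foxf2 probe starts 71.3 kb from that of Foxq1, and the Foxc1 probe 178 kb from that of Foxf2. All 3 were higher on days 5 and 7 than on day 0. Of the 4 other names with a probe within 500 kb of one of them, 2 were not detected on any array. Of the remaining pair, 1700018A04Rik differed by 0.82 on day 5 and by 1.87 on day 7 against day 0, and Gmds, an enzyme of GDP-fucose synthesis, by 0.04 and 0.68. Foxf1 and Foxc2 form another pair 32.0 kb apart on chromosome 8, and the folate enzyme gene Mthfsd between them differed by 0.62 on day 5 and 0.38 on day 7. Foxd2 and Foxe3, 19.5 kb apart on chromosome 4, both stayed within 2-fold in every comparison.

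**Figure D3:**
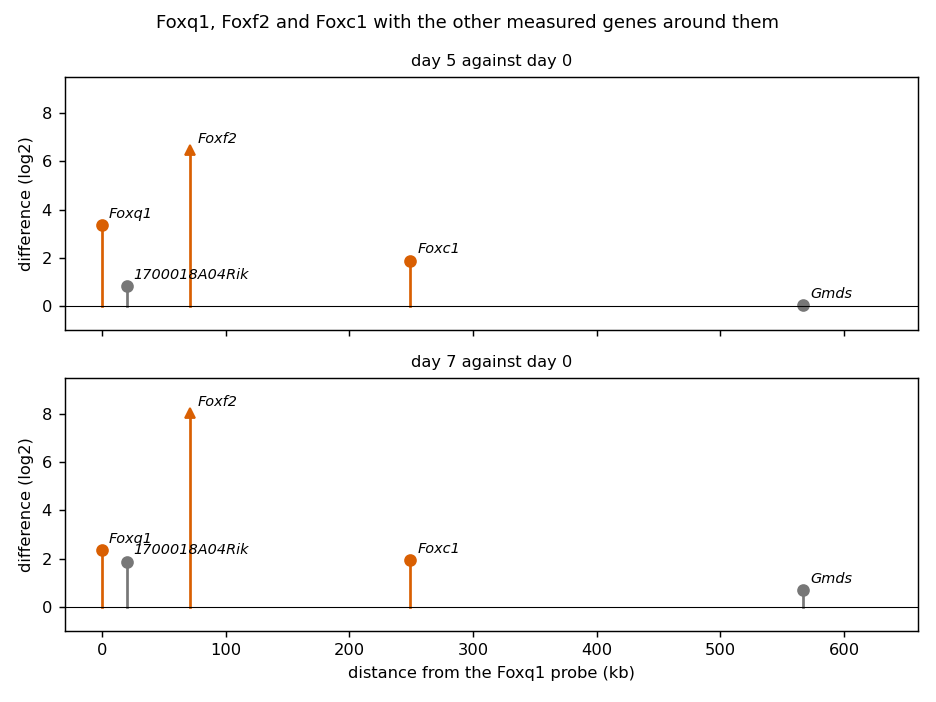
Log2 difference of day 5 against day 0 (upper panel) and day 7 against day 0 (lower panel) by distance in kb from the Foxq1 probe, for the measured genes of the chromosome 13 stretch. Forkhead genes are orange and other genes grey. The triangles, those of Foxf2, are differences from its own undetected day 0 signal. Foxq1, Foxf2 and Foxc1 are at 3.36, 6.47 and 1.89 on day 5, with Gmds at 0.04.

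RefSeq (GRCm38.p6) gave a promoter window, 250 bases before to 50 after the transcript start, for 20 of the forkhead genes. The windows of Foxf2 and Foxc1, neighbours that were both higher after day 0, and of Foxd3, which was lower, are printed 5′ to 3′ on the gene's strand, with GC boxes (GGGCGG on either strand) and CCAAT boxes (CCAAT on either strand) in capitals.
Foxf2, chr13:31625566-31625865, plus strand: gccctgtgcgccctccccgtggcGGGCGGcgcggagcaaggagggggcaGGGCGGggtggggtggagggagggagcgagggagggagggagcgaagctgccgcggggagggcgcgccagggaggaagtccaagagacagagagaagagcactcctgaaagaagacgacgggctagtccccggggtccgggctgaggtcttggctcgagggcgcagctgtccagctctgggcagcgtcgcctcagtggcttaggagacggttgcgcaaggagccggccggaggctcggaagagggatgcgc
Foxc1, chr13:31806396-31806695, plus strand: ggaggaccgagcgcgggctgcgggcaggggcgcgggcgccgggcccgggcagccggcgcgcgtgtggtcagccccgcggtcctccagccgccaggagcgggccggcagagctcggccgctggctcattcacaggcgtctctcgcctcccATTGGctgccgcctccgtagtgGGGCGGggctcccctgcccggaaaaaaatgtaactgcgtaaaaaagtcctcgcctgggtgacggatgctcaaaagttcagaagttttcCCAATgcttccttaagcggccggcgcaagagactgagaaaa
Foxd3, chr4:99656049-99656348, plus strand: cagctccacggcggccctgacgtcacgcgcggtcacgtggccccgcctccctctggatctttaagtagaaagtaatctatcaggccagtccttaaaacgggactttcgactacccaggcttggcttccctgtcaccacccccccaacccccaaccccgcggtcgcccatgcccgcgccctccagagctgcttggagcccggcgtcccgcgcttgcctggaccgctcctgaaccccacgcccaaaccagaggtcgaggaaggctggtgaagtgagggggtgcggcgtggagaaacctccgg
The Foxf2 window held 2 GC boxes, the Foxc1 window 1 GC box and 2 CCAAT boxes, and the Foxd3 window neither. Over the family, 16 of 23 windows held a GC box, against 35.7% of all 32851 mouse windows, and 9 held a CCAAT box, against 37.4%. The windows were also richer in G and C, with a median of 65.3% against 52.7% over all windows, and a median of 25 CpG dinucleotides against 7. The forkhead motif TGTTTAC, searched on both strands, was in none of the family's windows and in 3.65% of all windows. The form TGTTTGC was in a window of Foxj3 and of Foxp1, and in 5.07% of all windows. The letters CAGACA, a short Smad motif, were in windows of Foxd1, Foxn3 and Foxn4 and in 21.0% of all windows. No motif searched contains another, and a match is only a match of letters.

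Genes around the Foxf factors were read with a list of 18 gut mesenchyme and hedgehog genes, 17 of which were compared. On day 5 against day 0, 6 were higher and 4 lower, and on day 7 against day 0, 7 were higher and 3 lower. Among the ligands, Ihh was 6.91-fold higher on day 5 and 103-fold higher on day 7 than on day 0, and Shh was detected on day 5 only. The receptor component Smo was 4.33-fold higher on day 5 than on day 0. Of the transcriptional mediators, Gli2 was 7.47-fold lower and Gli1 4.13-fold lower on day 7 than on day 0, while Gli3 differed by 0.04 on day 5 and 0.72 on day 7, within 2-fold. Mesoderm regulators were among the higher genes, with Hand2 at 16.5-fold and Hand1 at 12.7-fold on day 7 against day 0.

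Mesenchyme markers were read beside the Foxf factors. On day 5 against day 0, 3 of 10 were higher and 2 lower, and on day 7 against day 0, 9 were higher and 1 lower. Their summed signal, in units of the 75th percentile, came to 3.10 on day 0, 3.19 on day 5 and 22.7 on day 7. Lum and Dcn were not detected on day 0, and Lum also not on day 5. On day 7, Postn was 184-fold and Col3a1 89.2-fold higher than on day 0, while Thy1 was 11.1-fold lower. On day 5, Col1a2 was 18.1-fold and Twist1 6.68-fold higher than on day 0, while Col3a1 differed by -0.27 and Col1a1 was 2.22-fold lower. The part that mesenchyme cells had in the Foxf values was not tested.

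Lists for the Foxc factors were mixed. Of 12 endothelial genes, 4 were higher and 4 lower on day 5 against day 0, and 4 higher and 2 lower on day 7 against day 0. Flt1, a VEGF receptor, was 164-fold and Kdr, the main VEGF receptor of endothelium, 38.1-fold higher on day 5 than on day 0. For Cdh5, undetected on day 0, the rise had a lower bound of 22.6-fold by day 5 and 11.3-fold by day 7. Pecam1, by contrast, was at least 29.5-fold lower on day 5 than on day 0. Tie1 and Emcn were not detected on days 0 and 5. All 12 endothelial genes were detected on day 7, where 5 were higher and 0 lower against day 5. Of 8 somite genes compared, 3 were higher and 2 lower on day 5 against day 0, with Meox1 9.70-fold higher and Tcf15 16.8-fold lower. On day 7 against day 0, 2 somite genes were higher and 2 lower. Of 8 cardiac markers, 3 were higher and 2 lower on day 5, and 5 were higher on day 7, each against day 0.

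Foxb1, Foxd4 and Foxp2, known chiefly from the nervous system, were also higher after day 0. Foxb1 acts in the hypothalamus and brain stem. Its signals were -9.08 on day 0, not detected, -3.79 on day 5 and -1.62 on day 7. It exceeded day 0 by at least 8.02-fold on day 5 and 36.2-fold on day 7, and was 4.52-fold higher on day 7 than on day 5 (2.18 ± 0.21). The normexp correction gave lower bounds, in log2 against day 0, of 1.43 on day 5 and 3.19 on day 7. Foxb1 and Foxf2 were the genes of the family that were called higher at each step.

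Foxd4 belongs to a group that in frog embryos keeps neural precursors immature. Its signals were -8.85 on day 0, not detected, -4.12 on day 5 and -5.66 on day 7. It exceeded day 0 by at least 6.38-fold on day 5 and 2.19-fold on day 7, and was 2.91-fold lower on day 7 than on day 5 (-1.54 ± 0.25). With the normexp correction none of these was called, with bounds of 0.99 and 0.23 and a difference of -0.76.

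Foxp2, a repressor known from brain circuits for vocal learning and from lung epithelium, had signals of -6.29 on day 0, -2.38 on day 5 and -2.42 on day 7. It was 15.0-fold higher on day 5 than on day 0 (3.91 ± 0.30) and 14.7-fold higher on day 7 than on day 0 (3.87 ± 0.30), and level between days 7 and 5. The other Foxp2 probe read -8.54 on day 0, not detected, -4.77 on day 5 and -5.28 on day 7, and was called higher in the same comparisons. Under the normexp correction the Foxp2 differences were 2.07 and 2.02.

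The neural marker list did not hold the same pattern. Of 7 neural markers compared, 1 was higher and 2 lower on day 5 against day 0, and likewise on day 7 against day 0. The higher one was Nes, an intermediate filament of many precursor cells, at 4.05-fold on day 7. Neurod1 was at least 25.3-fold lower and Tubb3 2.40-fold lower on day 7 than on day 0. The signals of the list summed to 2.22 on day 0, 3.25 on day 5 and 4.04 on day 7, and without Nes to 1.36 on day 0, 0.48 on day 5 and 0.53 on day 7.

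Foxd3, which maintains the pluripotent epiblast and later marks the premigratory neural crest, had the most negative difference of the family. Its probe lies at chr4:99325027-99325086 (mm9, plus strand) and its first 30 bases are shown with those of the Foxf2 and Foxq1 probes, the neighbours on chromosome 13 with the larger differences among Foxq1, Foxf2 and Foxc1 on day 5.
Foxd3 probe: ctgtgggggtgggagggacattctttgtac
Foxf2 probe: ttttatgatcttcgtatactcacacttcgc
Foxq1 probe: tccggagaccgccggcgcggcgcacctgta
Foxd3 had a signal of 0.43 on day 0, -0.80 on day 5 and -4.96 on day 7, and was detected throughout. It was 2.35-fold lower on day 5 than on day 0 (-1.23 ± 0.20) and 42.0-fold lower on day 7 than on day 0 (-5.39 ± 0.22). With the normexp correction the day 7 difference was -4.31. On the log2 scale the larger step was the later one, with day 7 below day 5 by 17.9-fold (-4.16 ± 0.22), and 34 of the 21662 genes, bounds taken at their bound, had a more negative difference there.

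Pluripotency genes were read beside Foxd3. Of 9 compared, 8 were lower on day 5 and 8 on day 7 against day 0, and 6 were lower on day 7 than on day 5. Esrrb was 57.0-fold lower and Zfp42 42.3-fold lower on day 5 than on day 0, and Pou5f1 was 5.19-fold lower. Klf2 stayed within 2-fold, and Klf4 was 7.56-fold higher on day 7 than on day 5. The signals of the list summed to 233.8 on day 0, 24.4 on day 5 and 19.7 on day 7. What part the number of pluripotent cells had in the Foxd3 values was not tested.

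Of 12 neural crest genes compared, 5 were higher and 3 lower on day 5 against day 0, and 5 were higher and 2 lower on day 7 against day 0. Sox9 was 52.6-fold, Ets1 22.1-fold and Snai2 12.3-fold higher on day 7 than on day 0. Of these, Sox9 and Ets1 are known to be active outside the crest also. Pax7 was 9.87-fold higher on day 5 than on day 0, and differed from day 0 by -0.49 on day 7. Sox10, a standard marker of the migrating crest, was 2.08-fold lower on day 7 than on day 0, Pax3 was not detected on any array, and Ngfr was 16.2-fold lower.

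Foxd1, a factor of kidney stroma and retina, was lower on both days. Its signals were -3.32 on day 0, -4.88 on day 5 and -5.18 on day 7. It was 2.94-fold lower on day 5 (-1.56 ± 0.23) and 3.62-fold lower on day 7 (-1.86 ± 0.23), each against day 0. The other Foxd1 probe, with -3.76 on day 0, -5.78 on day 5 and -5.31 on day 7, was called lower in the same comparisons. With the normexp correction the day 5 difference was -0.99 and fell short. Foxd2 had signals of -5.24 on day 0, -4.88 on day 5 and -5.10 on day 7, within 0.36 of each other. Its only probe is 60 bases long, but the position given for it spans 26 bases.

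Several factors of single organs gave low or flat values. Foxe3, a lens factor, had signals of -4.48 on day 0, -4.87 on day 5 and -4.92 on day 7. Foxl2, the factor of ovarian granulosa cells, had -4.07 on day 0, -4.73 on day 5 and -4.97 on day 7, a difference of -0.90 on day 7 against day 0 that did not reach 2-fold. Foxn1, the thymus and hair follicle factor, was detected on day 0 only, at -6.64, close to the detection limit, and its bounds were under 2-fold. Foxi1, a factor of the inner ear and of acid-secreting kidney cells, was detected on day 7 only, at -6.92, too dim for any bound. Of 10 pharyngeal and foregut genes compared, 4 were higher and 2 lower on day 5 against day 0, with Tbx1 at 23.1-fold and Hhex at 19.4-fold higher, and 3 were higher and 2 lower on day 7. Nkx2-1, which acts with Foxe1 in the thyroid, was not detected on any array.

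Foxj1, the switch for motile cilia, was high on day 5 alone. Its signals were -0.78 on day 0, 1.06 on day 5 and -1.31 on day 7. It was 3.60-fold higher on day 5 than on day 0 (1.85 ± 0.20) and 5.17-fold lower on day 7 than on day 5 (-2.37 ± 0.20), and days 7 and 0 differed by -0.52.

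The motile cilium genes did not move with it as a group on day 5. Of 15 compared, 4 were higher and 6 lower on day 5 against day 0, with a median of -0.56. The higher ones were Rfx3, Dnah11, Rsph9 and Dnah9, at 4.07-fold, 3.47-fold, 2.84-fold and 2.14-fold, and the lower ones included Tekt1, at 32.2-fold, and Rfx2, at 9.86-fold. On day 7 against day 5, 7 were lower and none of the 15 was called higher, with a median of -0.99, in the same direction as Foxj1. On day 7 against day 0, 2 were higher and 8 lower, with Tekt1 591-fold and Rsph1 14.3-fold lower. The signals of the list summed to 12.3 on day 0, 4.37 on day 5 and 1.84 on day 7, and without Tekt1, its brightest gene, to 3.60 on day 0, 4.10 on day 5 and 1.83 on day 7.

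Foxm1 drives genes of the G2 and M phases of the cell cycle, and stayed level. Its signals were 1.87 on day 0, 1.63 on day 5 and 1.72 on day 7, with differences of -0.24 ± 0.20 on day 5 and -0.15 ± 0.20 on day 7 against day 0. The 18 mitotic genes linked to it were all detected on every array and none was called higher. On day 5 against day 0, 8 were lower, with a median of -0.85, and on day 7 against day 0, 7 were lower, with a median of -0.87. Cyclin B1 (Ccnb1) was 3.18-fold and the kinase Nek2 2.91-fold lower on day 5, and Ccnb1 3.46-fold, topoisomerase Top2a 2.64-fold and Nek2 2.41-fold lower on day 7, each against day 0. Between days 7 and 5 none of the 18 was called, and the median was 0.02.

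The Foxo factors are held in check by insulin signalling through PI3K and Akt, and act largely through their place in the cell, which these arrays do not read. Foxo1 had signals of 1.90 on day 0, 1.62 on day 5 and 1.30 on day 7. Its day 7 difference of -0.60 ± 0.20 against day 0 did not reach 2-fold, and its other probe gave -0.96. Foxo4 had signals of -4.72 on day 0, -3.89 on day 5 and -3.03 on day 7. It was 3.22-fold higher on day 7 than on day 0 (1.69 ± 0.22), and 0.86 with the normexp correction, under the limit.

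Foxo3 was read differently by its 2 probes, both on chromosome 10. The one used read -4.54 on day 0, -4.65 on day 5 and -4.94 on day 7, within 2-fold throughout. The other was assigned to Foxo3 only through an older alias of the gene. It read -7.00 on day 0, not detected, -5.04 on day 5 and -4.81 on day 7. It was called higher on day 5 (at least 1.76 in log2) and on day 7 (at least 1.98) against day 0. A further probe carries the name Foxo3 in the files but lies on chromosome 14, and was left out. The first 30 bases of each show that the 3 probes read different letters.
Foxo3 probe used: cgtgttttactatcatgatggtttagggga
Foxo3 other probe: ctccacatctgatttagaaggaaaatctga
probe left out: ggaaattaccaacaagaacttctccaaact

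Upstream of Foxo, 16 PI3K, Akt and 14-3-3 genes were compared. On day 5 against day 0, 3 were higher and none of the 16 was lower, and on day 7 against day 0, 4 were higher and again none was lower. Over all genes, 16.5% were higher and 16.1% lower on day 5, and 16.2% higher and 19.1% lower on day 7. The day 5 count of higher genes is near that share and says nothing particular of the list. The signals of the list summed to 163.0 on day 0, 130.8 on day 5 and 130.1 on day 7. Without its brightest gene they came to 111.2, 103.4 and 102.2. Pik3r1, a regulatory subunit of PI3K, was 9.60-fold higher on day 5 and 10.2-fold higher on day 7 than on day 0. Akt1 was 2.79-fold higher on day 7 than on day 0, and Sgk3, a kinase related to Akt, was 4.31-fold higher on day 7 only.

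Of 25 known Foxo targets, 21 were compared. On day 5 against day 0, 9 were higher and 4 lower, and on day 7 against day 0, 7 were higher and 4 lower. The higher ones included the insulin receptor Insr, at 4.31-fold on day 5, the cyclin Ccng2, at 3.71-fold, and Bcl6, at 3.29-fold. The lower ones included the muscle ubiquitin ligase Trim63, at 20.0-fold on day 5, Gadd45a, at 8.87-fold, and the mitochondrial superoxide dismutase Sod2, at 4.43-fold. Igfbp1 and Tnfsf10 were not detected on any array.

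Differences near the limit were seen for Foxn3 and Foxn2. Foxn3, which slows the cell cycle at checkpoints, had signals of 1.14 on day 0, 1.93 on day 5 and 2.18 on day 7, and was 2.05-fold higher on day 7 than on day 0 (1.04 ± 0.20), at the limit. This call was lost with the normexp correction (0.94) and with the median over its probes (0.97). Its 3 probes ran the same way, at 0.97 to 1.47 on day 7 and 0.79 to 1.29 on day 5 against day 0, and 2 of the 3 were called on day 7. Foxn2 had signals of 0.80 on day 0, -0.28 on day 5 and 0.15 on day 7. It was 2.11-fold lower on day 5 than on day 0 (-1.08 ± 0.20), also at the limit, and -0.95 with all genes centred on a median difference of 0.

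Foxj2 had signals of -1.27 on day 0, -0.32 on day 5 and 0.01 on day 7, and was 2.44-fold higher on day 7 than on day 0 (1.29 ± 0.20), after 0.95 on day 5, just under the limit. Foxj3 was flat at 1.86, 1.91 and 1.92 on days 0, 5 and 7 with the probe used. Another detected Foxj3 probe, much dimmer, differed by -0.52 on day 5 and -0.49 on day 7 against day 0, within 2-fold. Foxk1 and Foxk2, which restrain autophagy genes in fed cells, stayed within 2-fold. Foxk1 had -2.66 on day 0, -2.72 on day 5 and -1.94 on day 7, and all 3 of its probes were higher on day 7 than on day 0, by 0.30 to 0.79. Foxk2 had 0.83 on day 0, 1.25 on day 5 and 1.08 on day 7, but its detected probes disagreed in sign, from -0.43 to 0.25 on day 7 against day 0.

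Foxp1 and Foxp4 also stayed within 2-fold. Foxp1, a repressor whose splice forms differ between ES cells and other cells, had signals of 0.26 on day 0, 0.62 on day 5 and 0.31 on day 7. Its other probe gave -0.52 on day 7 against day 0 where the first gave 0.05. Foxp4, a partner of Foxp1 and Foxp2 in the gut and lung, had -4.02 on day 0, -3.33 on day 5 and -3.38 on day 7. In all, 13 of the 23 genes detected on all 3 arrays were within 2-fold in every comparison. The same count over all genes was not made, so it says nothing particular of the family. Of all genes detected on all 3 arrays, 15.7% were higher and 15.0% lower on day 5 against day 0. The shares were 15.6% and 17.9% on day 7 against day 0, and 4.85% and 6.93% on day 7 against day 5.

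**Figure D4:**
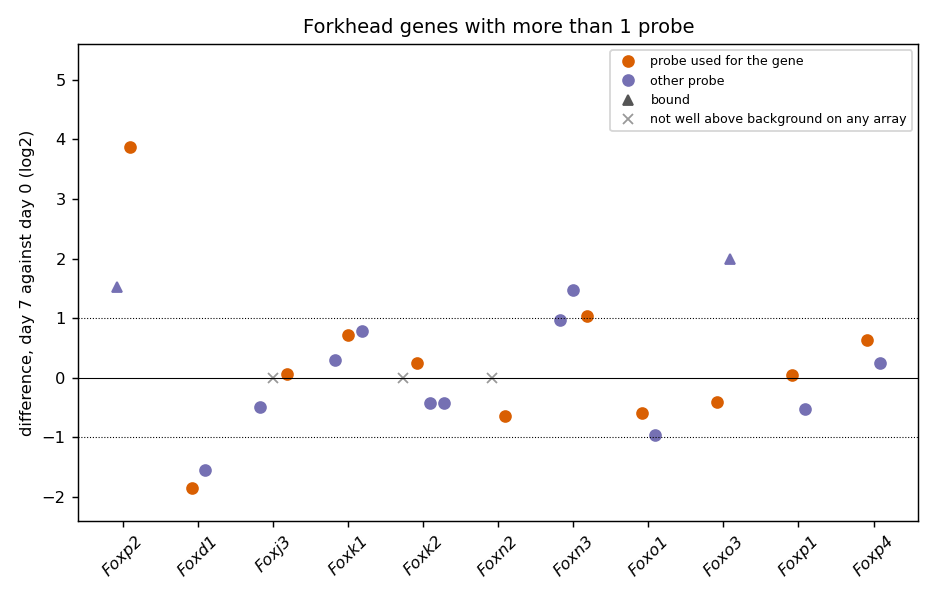
Log2 difference of day 7 against day 0 for each probe of the 11 forkhead genes with more than 1 probe. Orange marks the probe used for the gene, purple the others, triangles are lower bounds, and grey crosses at 0 mark probes not well above background on any array. The Foxd1 probes are both below -1 and the Foxp2 probes both above 1, while those of Foxo3 are at -0.40 and at least 1.98.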

How the data were processed

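Total RNA of 3 samples was hybridised to 1 one-colour Agilent array each. Per the file headers, Agilent Feature Extraction 10.5.1.1 measured the spot intensity, subtracted background and detrended it across the slide before the files were deposited. The authors' value table holds log2 values with the same median (7.17) on every array, correlated at 0.9998 or more with the deposited scanner signals, and how its columns were equalised is not given in the sources read. From the scanner files, log2 processed signals were set against each array's 75th percentile over gene spots. Flagged spots (104 to 149 per array) were dropped, and no gene spot was saturated. The number of arrays, 1 per day, limits the precision, and nothing measures the spread between cultures.

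Probes were named through the transcript identifier of the file in RefSeq's gene table (24844 probes) or through the file's symbol where the chromosome agreed (6006 probes), and 10323 kept the name in the file. An older alias named 1 forkhead probe, the other Foxo3 probe. A gene was represented by the probe detected on the most arrays, then by the brightest. All forkhead genes with a probe are named with values. From each other list, up to 3 genes per direction and comparison with the largest difference were eligible to be named, as were the definitive endoderm, hepatic and pluripotency markers that check the labels, and further genes named in the text (Dcn, Dnah9, Emcn, Gli3, Igfbp1, Lum, Nkx2-1, Pax3, Smo, Tie1 and Tnfsf10) were chosen after their values were seen. The members, the lists and the alternatives were chosen with earlier results of these data known. The 9 alternatives were normexp background correction with an offset of 50, 3 other scalings, the authors' table, the median over probes, no filter on dim probes, only genes detected on all arrays, and flagged spots kept. Simulated data with known changes were used to test how differences are called. The changes were planted in bright, detected probes and lay well past 2-fold. Lower bounds from undetected signals and changes near the 2-fold limit were therefore not tested. R 4.3.3 with limma 3.58.1 and Python 3.11.15 with pandas 2.3.3 were used.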

Additional observations from a re-analysis of the deposited data

Results flagged for a closer look

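A pair of probes outside the comparisons gave signal above background on every array. The files name them only by a transcript identifier, and their descriptions point to forkhead genes, so that they were not counted as probes of the family. The probe described as Foxp1 read -4.41 on day 0, -4.25 on day 5 and -4.52 on day 7, within 2-fold throughout, as the Foxp1 probes of the report were. The probe described as Foxn2 read -5.83 on day 0, -6.43 on day 5 and -5.71 on day 7, also within 2-fold. Its lowest value was on day 5, like that of the Foxn2 probe used in the report. With 1 array per day, no search for arrays that stand apart within a group was possible.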

How the results depend on the processing

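No paired analysis was possible because each day had 1 array. Over 9 alternatives, 238 of 250 called forkhead differences stayed called, 12 were lost and 0 changed sign, while 6 of 515 uncalled ones became called. A difference was not counted under an alternative that left its gene out. Most of the lost calls were lost with the normexp correction. With normexp correction, 6 forkhead genes were higher on day 7 against day 0, in place of 10, beside 11.7% of all genes in place of 16.2%. That fit was made without the spots of most negative net signal (5 on day 0, 0 on day 5 and 1 on day 7), which upset the default fit. Over all genes it called 3.93% higher and 4.74% lower on day 7 against day 5, in place of 5.96% and 8.38%. Keeping only the 23 genes detected on all arrays left 4 higher on day 5 against day 0, 6 on day 7 against day 0 and 0 on day 7 against day 5, beside 15.7%, 15.6% and 4.85% of all genes, since Foxb1, Foxd4, Foxf1 and Foxf2 then drop out. With no filter on dim probes Foxi1 was called, at 2.12 on day 7 against day 0. With the median over probes Foxn2 was at -1.22 in that comparison. That median takes in the other Foxn2 probe, which was not detected on any array (-6.63 on day 0 and -8.42 on day 7). The detected probe gave -0.64. Foxj2 on day 5 against day 0 was at 1.09 with all genes centred. Signal over background limits Foxb1, Foxd4, Foxf1, Foxf2, Foxi1 and Foxn1, each undetected on at least 1 array. It also limits Foxp2, whose day 0 signal of -6.29 was close to the lowest detected signal (-6.79). The number of arrays, 1 per day, limits every difference.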
